A study of Mus musculus with 7 samples.

Results

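The genes described here are the ligands, receptors, inhibitors and transducers of Wnt signalling in female C57BL/6 mice. They were measured in RNA from a pulldown aimed at kisspeptin cells of a preoptic nucleus, the AVPV (anteroventral periventricular nucleus). Protein-coding genes were chosen by symbol: Wnt, Fzd, Lrp5 and Lrp6, Rspo, Lgr4 to Lgr6, Sfrp, Dkk, Axin, Dvl, Nkd and Tcf7 family names, with Lef1, Ctnnb1, Apc, Rnf43, Znrf3, Notum and Wif1. These names gave 64 genes of 55384 listed. The set was proposed after falls of Fzd7 and Nkd1 in these data were known, so those falls are a description. The counts of called genes below include both genes, and nothing is read from that.

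All mice carried Kiss1Cre and the HA-tagged ribosomal protein Rpl22 (Kiss1Cre+/Rpl22HA+/+), so that the Kiss1-driven Cre recombinase marks the ribosomes of kisspeptin cells. Ribosome-bound RNA was pulled down from AVPV punches with the Ribotag procedure, with 4 brains pooled for every library. Ovariectomized females given no estradiol make up the GDX group (4 libraries), and females given estradiol the E2 group (3 libraries). The labels do not say whether the E2 females were also ovariectomized, and no ages are given there. Pools, not single animals, are thus the replicates, and fewer cells of a type cannot be told apart from less RNA per cell.

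Wnt proteins are secreted lipid-modified ligands that bind a Frizzled receptor together with the co-receptor LRP5 or LRP6. In the canonical branch, Dishevelled is then recruited, the complex of Axin, APC and GSK3 stops degrading beta-catenin, and beta-catenin acts on target genes with TCF and LEF factors. Axin2, Nkd1, Lef1, Notum, Rnf43 and Znrf3 are known feedback targets of the pathway in many tissues. Secreted SFRP and WIF proteins, some DKK proteins and the cytoplasmic Naked proteins restrain it.

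The 7 libraries held 29207544 to 36213127 counts. Kiss1 held 44.5 to 113.5 CPM (counts scaled to the effective library size) in GDX and 379 to 485 CPM in E2, and an overlapping gene model shares its counts. Pgr, a classic estrogen target, held 23.5 to 33.1 CPM in GDX and 109 to 132 CPM in E2, and the tagged gene Rpl22 26.75 to 33 CPM in GDX and 33.7 to 35.9 CPM in E2. Neuronal markers (8 genes) summed to 3919 to 4048 CPM in GDX and 4122 to 4299 CPM in E2. Astrocyte markers (8 genes) summed to 842 to 2765 CPM in GDX and 612.5 to 710 CPM in E2, and endothelial markers (8) to 338 to 808 and 194 to 313 CPM. Mural and meningeal markers (8) summed to 652 CPM in GDX replicate 4, to 157 to 289 CPM in the other GDX libraries and to 103 to 146 CPM in E2. Ependymal and tanycyte markers (8) summed to 63.8 to 118 and 35.6 to 66.1 CPM, oligodendrocyte markers (8) to 2824 to 5858 and 2615 to 3136 CPM, oligodendrocyte precursor markers (5) to 153 to 225 and 140.0 to 169.5 CPM, and microglial markers (8) to 109 to 129 and 110.3 to 137 CPM. None of these markers was at 0 in every library. The pulldown thus also held RNA of other cell types, and which cells gave the Wnt RNA was not tested. By these sums GDX replicate 4 was set apart by vascular and meningeal genes, and GDX replicates 1 and 4 by astrocyte genes. The oligodendrocyte sum of 5858 CPM was that of GDX replicate 1, beside 2824 to 3120 CPM in the other GDX libraries.

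E2 was compared with GDX over 18282 genes that passed a filter on low counts, by the edgeR quasi-likelihood test with Benjamini-Hochberg adjustment over all of them. Of the 64 genes, 58 passed the filter. An adjusted p under 0.05 was reached by 5, all lower in E2: Nkd1, Nkd2, Fzd5, Fzd7 and Dkk3. This is 8.62% of those tested, where 3.88% of all tested genes were called in either direction, 1.33% lower and 2.55% higher. Among tested protein-coding genes alone 4.52% were called, 1.55% as lower. At an unadjusted p under 0.05, 12 were lower and 4 higher, where 16.8% of all tested genes passed that level, 8.89% lower and 7.88% higher. DESeq2 called 8 lower and 1 higher, beside 8.5% of all genes with an adjusted p, 4.4% lower and 4.1% higher. The limma-voom calls were 6 lower and none higher, beside 5.92% of all tested genes, 2.18% lower and 3.74% higher. In a single simulated data set of independent libraries the share of false calls was 23.1% with DESeq2, 6.57% with edgeR and 6.72% with limma-voom. A single run cannot show whether edgeR and limma-voom exceed the threshold of 0.05 on average. Shifts of many genes in single libraries were not simulated. In that simulation edgeR recovered 53% of 2-fold changes. The median log2 fold change was −0.249 over the 58 genes and 0.004 over all tested genes. With library sizes alone as the scaling, 52.2% of all calls were rises in place of 65.8%, and the Wnt calls were then 6, all lower.

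The calls of Fzd5, Nkd2 and Dkk3 were lost when some single libraries were left out. Their log2 fold changes with 1 library left out were −1.03 to −0.78, −1.12 to −0.96 and −0.75 to −0.50. Without E2 replicate 1 or 2 none of these 3 was called, and without GDX replicate 1 Fzd5 was. Without GDX replicate 4 all 3 were called, and Wnt4 and Fzd8 were called higher. Without GDX replicates 1 and 4, an omission chosen after the data were seen, Fzd5 was called lower and Wnt4 higher. None of the 3 was called with a score of astrocyte, oligodendrocyte, microglial and endothelial markers as a covariate. With that score Fzd7 was not called either, and Nkd1 was. That score was 5.44 to 6.14 in GDX, highest in GDX replicate 1, and 5.13 to 5.38 in E2 (mean log2 CPM). It is thus partly confounded with treatment.

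**Figure D1:**
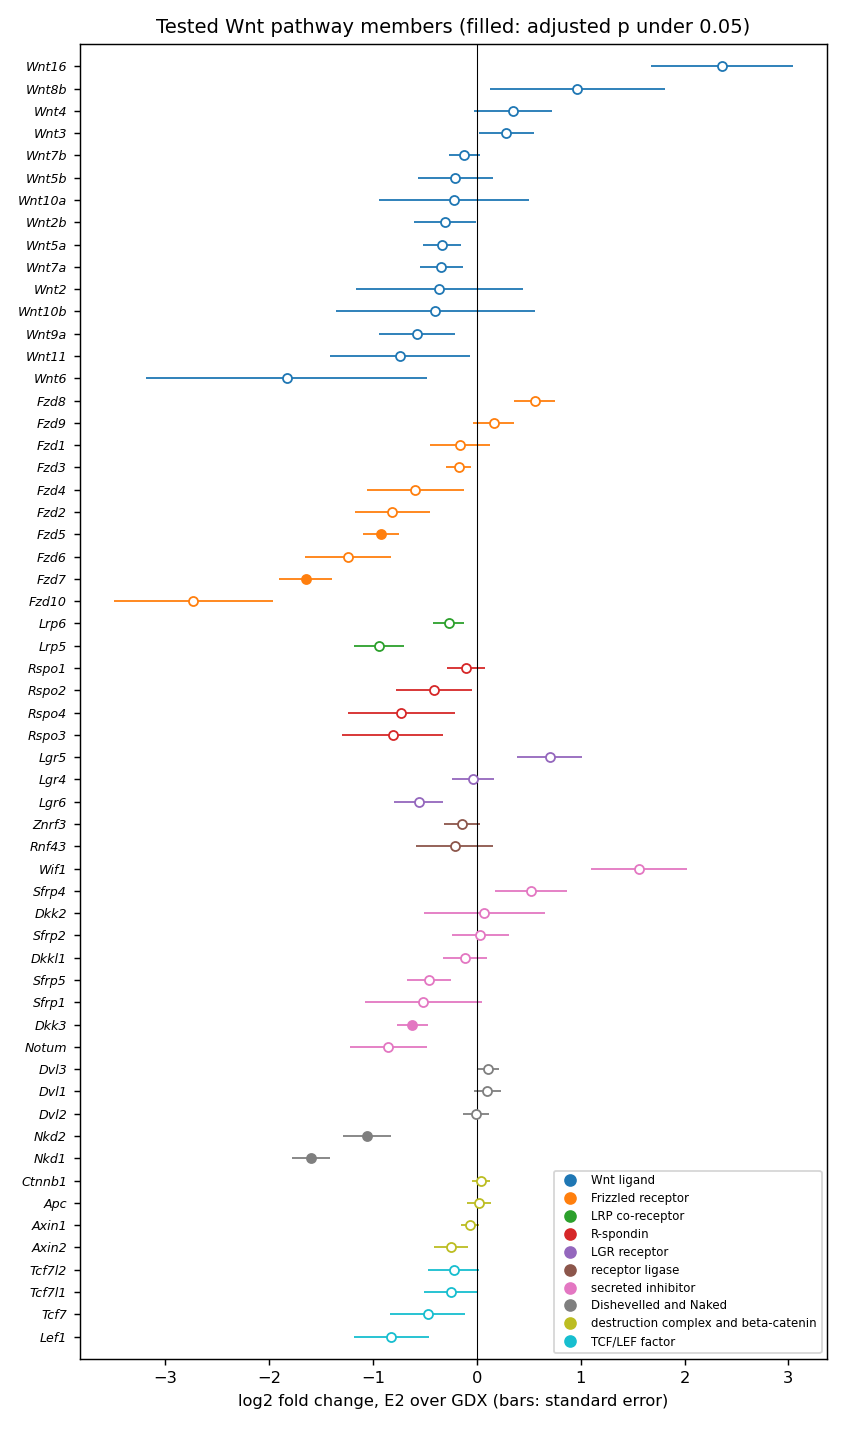
Log2 fold change, E2 over GDX, of the 58 tested Wnt genes with its standard error (horizontal bars), coloured by role, where filled points have an adjusted p under 0.05. The 5 filled points, Fzd5, Fzd7, Dkk3, Nkd1 and Nkd2, all lie left of 0.

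Promoter windows are shown for 4 of the 5 called genes, because these genes were lower together in E2. They are RefSeq windows on GRCm38.p6, from 250 bases before to 50 after a RefSeq start. Capitals mark a match to a TCF/LEF core (CTTTG followed by AA, AT, TA or TT) or to the estrogen response half-site GGTCA, on either strand. The Fzd7 window is chr1:59481897-59482196 (plus strand), that of Fzd5 chr1:64737701-64738000 (minus strand), that of Nkd1 chr8:88527383-88527682 (plus strand, around a start 6279 bases downstream of the first GENCODE start, so inside the annotated gene) and that of Nkd2 chr13:73847582-73847881 (minus strand).
Fzd7: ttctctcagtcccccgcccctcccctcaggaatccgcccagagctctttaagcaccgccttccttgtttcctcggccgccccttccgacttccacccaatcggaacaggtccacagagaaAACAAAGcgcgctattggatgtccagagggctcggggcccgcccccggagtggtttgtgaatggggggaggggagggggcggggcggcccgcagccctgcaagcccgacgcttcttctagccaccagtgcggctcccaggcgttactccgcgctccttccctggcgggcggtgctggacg
Fzd5: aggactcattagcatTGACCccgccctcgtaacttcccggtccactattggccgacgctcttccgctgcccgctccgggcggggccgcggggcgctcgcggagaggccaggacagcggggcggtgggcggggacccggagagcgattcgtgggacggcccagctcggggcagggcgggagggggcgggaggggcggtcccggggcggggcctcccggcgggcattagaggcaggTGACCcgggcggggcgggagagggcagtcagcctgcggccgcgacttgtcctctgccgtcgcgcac
Nkd1: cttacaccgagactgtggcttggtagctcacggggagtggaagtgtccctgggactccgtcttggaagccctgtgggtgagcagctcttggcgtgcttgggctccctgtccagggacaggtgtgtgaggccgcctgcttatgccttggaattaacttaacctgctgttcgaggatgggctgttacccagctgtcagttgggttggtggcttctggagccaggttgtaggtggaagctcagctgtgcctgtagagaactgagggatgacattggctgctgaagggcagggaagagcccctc
Nkd2: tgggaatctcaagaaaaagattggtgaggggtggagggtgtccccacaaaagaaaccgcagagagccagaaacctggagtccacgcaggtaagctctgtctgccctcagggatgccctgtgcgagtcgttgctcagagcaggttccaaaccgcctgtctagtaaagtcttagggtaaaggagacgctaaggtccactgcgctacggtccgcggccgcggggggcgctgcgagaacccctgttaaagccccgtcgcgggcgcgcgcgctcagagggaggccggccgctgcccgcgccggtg
The RefSeq start used for Fzd7, 59482147, lies upstream of its GENCODE start, 59482424, so its whole window lies before the annotated gene. The Fzd7 window held 1 TCF/LEF core match, AACAAAG on the reverse strand, whose first base lies at −130 from the RefSeq start. Such a match was found in 16.9% of all 32851 windows and in 7 of the 43 Wnt genes with a window. The Fzd5 window held 2 half-sites, read as TGACC, at −235 and −16, where 40.5% of all windows and 19 of the 43 genes held at least 1. The full estrogen response element, GGTCA and TGACC with any 3 bases between, which contains a half-site on each strand, was in 0.07% of all windows and in none of the 43 genes. The Nkd1 and Nkd2 windows held none of these letters. GC content was 66.7% for Fzd7, 75.7% for Fzd5, 58.3% for Nkd1 and 63% for Nkd2, where the median of all windows was 52.7%.

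The Naked genes, whose products bind Dishevelled and damp the pathway, were both lower in E2. Nkd1 (ENSMUSG00000031661, chromosome 8, 88521354 to 88594884, GRCm38) held 31.1, 29.7, 28.2 and 34.4 CPM in GDX replicates 1 to 4 and 6.997, 11.5 and 12.2 CPM in E2 replicates 1 to 3. Each GDX library was thus above each E2 library by a wide margin, and GDX replicate 4 was close to the other GDX libraries. The means were 30.9 ± 2.64 (SD, n = 4) and 10.2 ± 2.81 CPM (SD, n = 3), a level 3.02-fold higher in GDX, with a log2 fold change of −1.59 ± 0.18 (standard error, as throughout). Over 18 alternative settings it stayed between −1.74 and −1.35. Nkd2 (ENSMUSG00000021567, chromosome 13, 73818534 to 73847631), its paralogue, held 5.15, 4.96, 5.17 and 6.65 CPM in GDX and 2.44, 2.84 and 2.61 CPM in E2. Its groups did not overlap, and its level was 2.09-fold higher in GDX (log2 fold change −1.06 ± 0.23, edgeR adjusted p = 0.0238). The call was lost without GDX replicate 1 (edgeR adjusted p = 0.0625) or E2 replicate 1, 2 or 3 (0.12, 0.0683 and 0.0843), and with the marker covariate (−0.90, adjusted p = 0.329).

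The Dishevelled genes, which relay the receptor signal, did not pass. Dvl1 held 130, 132.5, 129 and 89.1 CPM in GDX and 129, 122 and 136 CPM in E2, with GDX replicate 4 well below all other libraries. Its log2 fold change was 0.10 ± 0.13 (edgeR adjusted p = 0.77) and −0.02 without GDX replicate 4. Dvl2 and Dvl3 differed by log2 fold changes of −0.01 and 0.11, and the value of Dvl2 is uncertain, since the libraries are unstranded and 1151 bp of its exons overlap those of the antisense gene Acadvl. Per length, Nkd1 made up 14.6% to 21.6% of the summed level of the 5 Dishevelled and Naked genes in GDX and 4.18% to 6.7% in E2.

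Of the 10 Frizzled genes, which encode the receptors that bind Wnt ligands, all passed the filter, 2 were called lower and none higher by edgeR. At an unadjusted p under 0.05, 5 were lower and 1 was higher (8.89% and 7.88% of all genes), and DESeq2 called 4 lower and none higher (4.4% and 4.1%). Libraries of the 2 groups did not overlap for 6 genes, 5 of them lower in E2. Of all tested genes 16.5% did not overlap, with 8.06% lower and 8.43% higher in E2, and of the protein-coding ones 17.9%.

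Fzd7 (ENSMUSG00000041075, chromosome 1, 59482424 to 59486955) held 10.2, 9.16, 10.99 and 17.3 CPM in GDX and 4.59, 3.13 and 3.67 CPM in E2. The groups were apart, and GDX replicate 4 stood above the other GDX libraries. Its mean was 11.9 ± 3.66 (SD, n = 4) against 3.80 ± 0.74 CPM (SD, n = 3), 3.13-fold higher in GDX, with a log2 fold change of −1.65 ± 0.25 that ranged from −1.81 to −1.41 over 18 settings. Without GDX replicate 4 the GDX mean was 10.1 CPM. With the marker covariate the log2 fold change was −1.46 and the call was lost (edgeR adjusted p = 0.0669). Fzd5 (ENSMUSG00000045005, chromosome 1, 64730558 to 64737751) held 11.6, 12.6, 14.5 and 14.6 CPM in GDX and 7.46, 5.57 and 8.03 CPM in E2. Fzd5 shares 1233 bp of exon with the opposite-strand gene Gm38058 (mean 24.2 counts, beside 358 for Fzd5), which leaves its value less certain. For Fzd5, GDX replicate 4 was level with GDX replicate 3, and the groups were apart. The level was 1.90-fold higher in GDX (log2 fold change −0.92 ± 0.18, edgeR adjusted p = 0.011), and the call was lost without E2 replicate 1 (0.0504) or 2 (0.0567) and with the covariate (−1.02, adjusted p = 0.0719).

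Libraries of E2 were also all below those of GDX for Fzd10, Fzd6 and Fzd2, which did not pass the test. Fzd10 held 2.73, 0.97, 0.47 and 5.03 CPM in GDX and 0.37, 0.33 and 0.33 CPM in E2, where 0.33 CPM stands for 10 counts. Its GDX libraries spread widely, and its log2 fold change of −2.73 ± 0.77 had an edgeR adjusted p of 0.09. Fzd6, a receptor also used in planar cell polarity, held 10.1, 7.85, 6.76 and 20.6 CPM in GDX and 3.21, 5.04 and 6.14 CPM in E2 (−1.24 ± 0.42, adjusted p = 0.17). Fzd2 held 5.35, 5.80, 4.75 and 13.4 CPM in GDX and 4.53, 4.62 and 3.37 CPM in E2 (−0.81 ± 0.36, adjusted p = 0.287). In all 3 the highest library was GDX replicate 4, where the mural and meningeal sum was also highest. Without that library the log2 fold changes were −2.01 ± 0.67, −0.78 ± 0.26 and −0.34 ± 0.24, and with the marker covariate −0.38, −0.28 and −0.28. The part of mural and meningeal cells in these values was not tested.

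Fzd8 was the Frizzled gene with higher levels in every E2 library. It held 6.93, 7.04, 5.44 and 9.30 CPM in GDX and 11.8, 9.82 and 10.1 CPM in E2. The lowest E2 library lay just above GDX replicate 4, and the test was not passed (log2 fold change 0.56 ± 0.20, edgeR adjusted p = 0.173). Without GDX replicate 4 it was 0.71 ± 0.19 (adjusted p = 0.0467).

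Per kilobase of exon, Fzd3 had the highest Frizzled level, 6.66 CPM per kb in GDX and 5.90 in E2, followed by Fzd9 at 4.25 and 4.75. Fzd3, known for its role in axon guidance, held 87.3, 69.8, 79.0 and 105 CPM in GDX and 75.6, 74.4 and 76.6 CPM in E2. Its groups overlapped (log2 fold change −0.18 ± 0.12, edgeR adjusted p = 0.524). Fzd1, Fzd4 and Fzd9 overlapped as well, with log2 fold changes of −0.16, −0.59 and 0.16. The sign of Fzd1 turned without GDX replicate 4 (0.19), and that of Fzd4 without GDX replicates 1 and 4 (0.32) and with the covariate (0.54). Fzd7 was the third in GDX at 2.63 CPM per kb and the ninth in E2 at 0.838 CPM per kb, and its neighbours in the GDX order, Fzd6 at 2.35 and Fzd1 at 2.12, lay within its spread between libraries. The share of Fzd7 in the Frizzled sum was 9.41% to 11.5% in GDX and 3.36% to 5.51% in E2, and that of Fzd8 4.24% to 5.78% and 8.0% to 10.7%. The shares, unlike the levels, showed GDX replicate 4 within the range of the other GDX libraries for Fzd7.

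**Figure D2:**
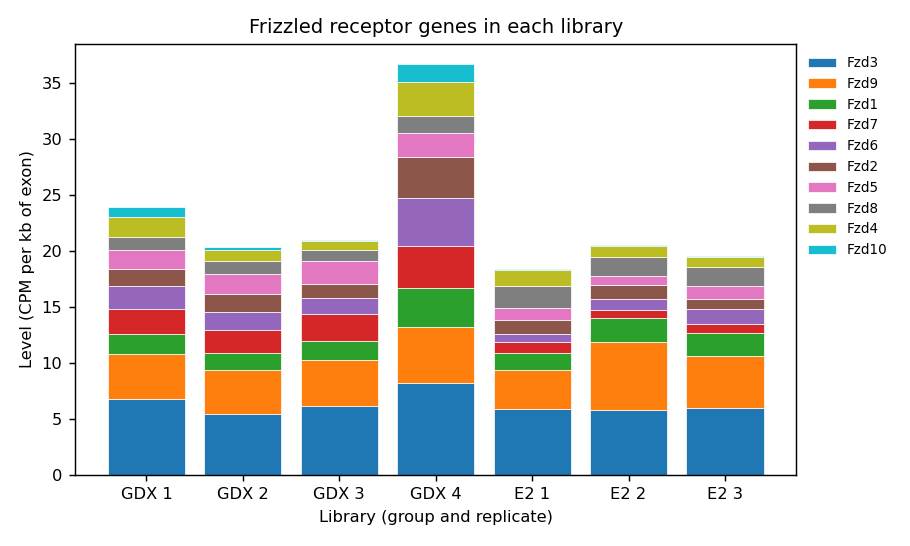
Level of the 10 Frizzled genes in each library, as CPM per kilobase of exon, stacked from the highest mean level at the bottom. The sum is 36.7 in GDX replicate 4, 20.4 to 23.9 in the other GDX libraries and 18.4 to 20.6 in E2.

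The LRP co-receptor genes did not pass by edgeR. Lrp5 held 13.4, 11.1, 7.77 and 16.2 CPM in GDX and 5.27, 6.26 and 7.37 CPM in E2. GDX replicate 3 lay just above the highest E2 library, and the log2 fold change was −0.94 ± 0.24 (edgeR adjusted p = 0.0561). It passed with limma-voom (adjusted p = 0.0309), with DESeq2 (0.00443), and in edgeR without GDX replicate 3 (0.0113) or with upper-quartile factors, library sizes alone or another low-count filter, but not with DESeq2 size factors in edgeR (0.0549) or with the marker covariate (−0.33, adjusted p = 0.813). Lrp6, the other co-receptor of the pair and the one with the higher level per length, held 33.4, 28.95, 32.25 and 44.0 CPM in GDX and 29.9, 24.0 and 32.3 CPM in E2 (−0.27 ± 0.15, adjusted p = 0.413).

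**Figure D3:**
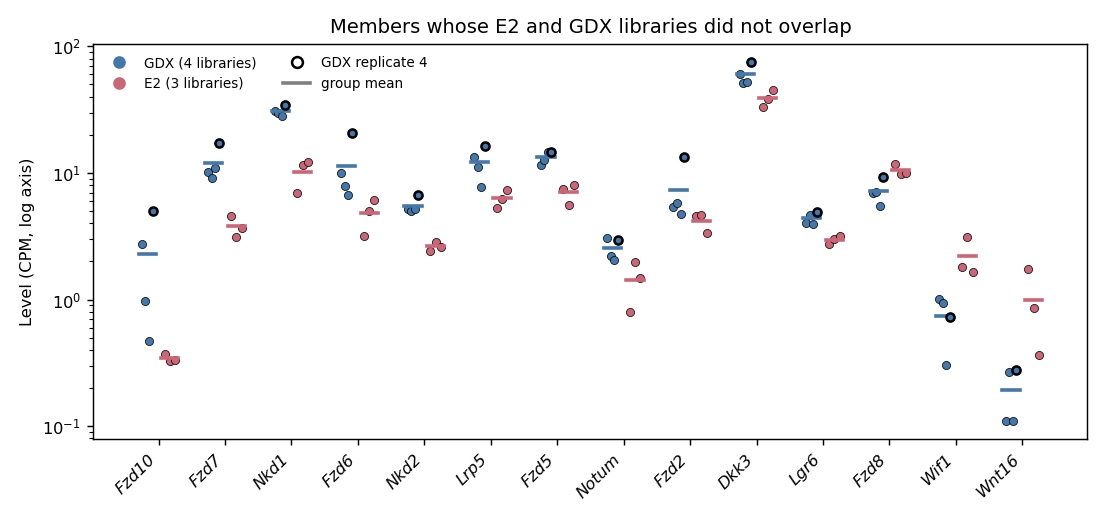
Level in CPM, on a log axis, of the 14 tested Wnt genes whose E2 and GDX libraries did not overlap, ordered by log2 fold change, with 1 point per library and bars at group means. In 11 the E2 libraries are lower and in Fzd8, Wif1 and Wnt16 higher, and the black rings mark GDX replicate 4. The 14 are 24.1% of the tested Wnt genes, where 16.5% of all tested genes did not overlap, 8.06% lower and 8.43% higher in E2. Among protein-coding genes 17.9% did not overlap.

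Of the 19 Wnt ligand genes 15 passed the filter, and edgeR, DESeq2 and limma-voom each called none, with 1 at an unadjusted p under 0.05, Wnt16. Wnt1, Wnt3a, Wnt8a and Wnt9b, which did not pass, reached at most 5, 7, 2 and 6 counts in any library, where a floor of 3 counts corresponds to 0.0828 to 0.103 CPM. Wnt4, which acts in female reproductive tract development, had a level of 3.74 CPM per kb in GDX, beside 3.71 for Wnt7a, and the highest ligand level in E2 at 4.75. Without GDX replicate 4 the GDX means were 2.67 for Wnt4, 4.14 for Wnt7a and 2.66 for Wnt7b. It held 10.3, 11.1, 12.1 and 29.1 CPM in GDX and 18.8, 18.9 and 22.1 CPM in E2. The 3 E2 libraries were above GDX replicates 1 to 3 and below GDX replicate 4. The log2 fold change was 0.35 ± 0.38 (edgeR adjusted p = 0.739) over all libraries and 0.83 ± 0.14 (adjusted p = 0.00176) without GDX replicate 4, so 1 library decided this call.

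Wnt7a held 13.1, 14.0, 12.25 and 7.74 CPM in GDX and 8.42, 10.2 and 9.28 CPM in E2. Here GDX replicate 4 was the lowest of all libraries, and the test was not passed (log2 fold change −0.34 ± 0.20, edgeR adjusted p = 0.451). Wnt7b, at 11.1 to 14.5 CPM in GDX and 11.1 to 13.6 CPM in E2, and the mainly non-canonical ligand gene Wnt5a, at 8.68 to 13.5 and 7.83 to 9.26 CPM, overlapped between groups. Wnt16 held 0.11, 0.27, 0.11 and 0.28 CPM in GDX, 4 to 10 counts, and 1.76, 0.86 and 0.36 CPM in E2. The E2 libraries were all above GDX but spread widely, and the test was not passed (log2 fold change 2.36 ± 0.69, edgeR adjusted p = 0.0916, none given by DESeq2). Wnt6 held 8.69 CPM in GDX replicate 4 and 0.30 to 0.99 CPM in the other 6 libraries.

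**Figure D4:**
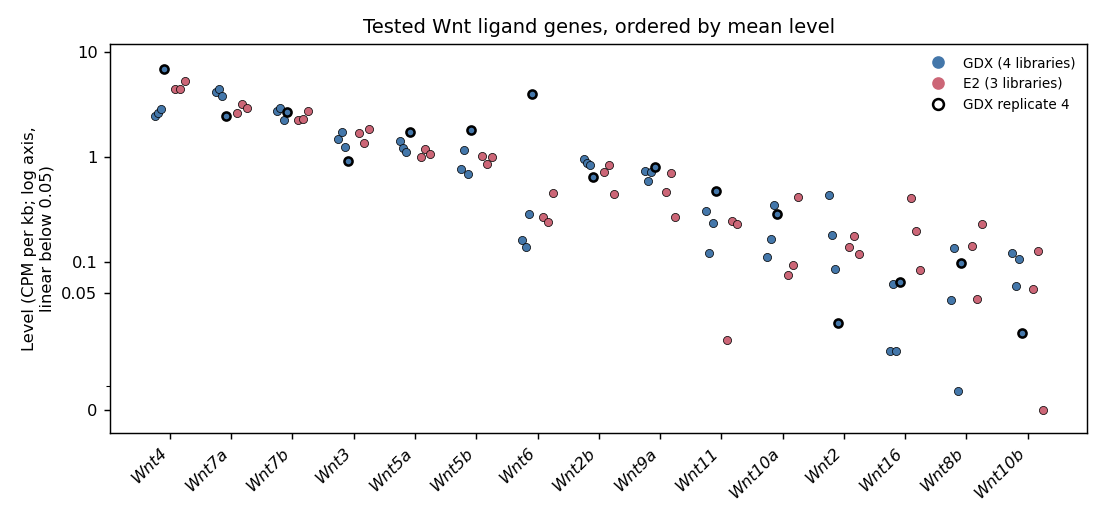
Level of the 15 tested Wnt ligand genes in each library, as CPM per kilobase of exon on an axis that is logarithmic above 0.05, ordered by mean level, with GDX replicate 4 ringed. Wnt4, Wnt7a and Wnt7b lead, and Wnt6 and Wnt4 are highest in GDX replicate 4.

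R-spondins amplify Wnt signals by binding LGR receptors together with RNF43 or ZNRF3, ligases that degrade Frizzled, which are thereby cleared from the cell surface. None of the 4 Rspo, 3 Lgr and 2 ligase genes was called by edgeR, DESeq2 or limma-voom, and Lgr5 and Lgr6 had unadjusted p under 0.05. Rspo1 made up 75.9% to 89.7% of the R-spondin sum per length in GDX and 88.8% to 90.6% in E2. It held 16.4, 20.5, 20.7 and 11.6 CPM in GDX and 16.3, 15.9 and 16.1 CPM in E2, so the E2 libraries lay within the GDX range (log2 fold change −0.10 ± 0.18, edgeR adjusted p = 0.854). Rspo2, Rspo3 and Rspo4 held 0.49 to 3.91 CPM over all libraries.

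Lgr4, the leading LGR gene per length, held 17.5, 18.9, 11.7 and 20.1 CPM in GDX and 16.2, 13.1 and 20.4 CPM in E2 (−0.04 ± 0.20, edgeR adjusted p = 0.954). Lgr6 held 4.01, 4.63, 3.96 and 4.94 CPM in GDX and 2.74, 3.0 and 3.17 CPM in E2, lower in each E2 library (−0.56 ± 0.23, adjusted p = 0.245). Lgr5, a stem cell marker in other tissues, held 1.51 to 2.51 CPM in GDX and 2.27 to 4.10 CPM in E2 (0.70 ± 0.31, adjusted p = 0.288). The 2 therefore pointed in opposite directions without passing. Znrf3 held 9.38, 10.7, 7.88 and 11.03 CPM in GDX and 9.53, 7.88 and 9.15 CPM in E2, and Rnf43 1.21 to 3.74 and 2.13 to 2.31 CPM.

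Of 11 secreted inhibitor genes 9 were tested, and edgeR and limma-voom each called 1 lower and none higher. The shares of all tested genes were 1.33% lower and 2.55% higher by edgeR, and 2.18% and 3.74% by limma-voom. DESeq2 called 1 lower and 1 higher (4.4% and 4.1% of all genes with an adjusted p). At an unadjusted p under 0.05, 2 were lower and 1 was higher (8.89% and 7.88% of all tested genes). Dkk3 (ENSMUSG00000030772, chromosome 7, 112116017 to 112159057), a divergent Dickkopf gene, had the highest level per length, 17.9 CPM per kb in GDX and 11.6 in E2. It held 60.5, 51.8, 52.7 and 75.3 CPM in GDX and 33.0, 38.6 and 45.5 CPM in E2. The groups did not overlap, but E2 replicate 3 and GDX replicate 2 were close. The level was 1.54-fold higher in GDX (log2 fold change −0.62 ± 0.15, edgeR adjusted p = 0.0455). The call was lost when E2 replicate 1 (0.19), E2 replicate 2 (0.162) or GDX replicate 1 (0.115) was left out, and the log2 fold change was −0.29 (adjusted p = 0.667) with the marker covariate.

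Wif1, whose product binds Wnt ligands directly, held 1.01, 0.94, 0.30 and 0.73 CPM in GDX and 1.82, 3.13 and 1.65 CPM in E2. It was higher in each E2 library at a low level (1.56 ± 0.46, edgeR adjusted p = 0.0974; DESeq2 adjusted p = 0.0323). Notum, which encodes an enzyme that removes the Wnt lipid, held 3.05, 2.21, 2.06 and 2.93 CPM in GDX and 0.80, 1.98 and 1.49 CPM in E2 (−0.85 ± 0.37, edgeR adjusted p = 0.267). It shares 708 bp of exon with the antisense gene Notumos, which leaves its value uncertain. Dkkl1 and Sfrp5 came next to Dkk3 in level per length, at 5.35 and 5.16 CPM per kb in GDX, and neither passed. Sfrp1, Sfrp2, Sfrp4 and Dkk2 overlapped between groups, Dkk1 reached at most 4 counts and Dkk4 was at 0 in all libraries.

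The transducers of the destruction complex, which tags beta-catenin for degradation, overlapped between groups in level. Ctnnb1, which encodes beta-catenin, held 546, 518.5, 519 and 654 CPM in GDX and 583, 555.5 and 583 CPM in E2 (log2 fold change 0.04 ± 0.09, edgeR adjusted p = 0.889). Apc differed by 0.02 ± 0.12 and Axin1 by −0.07 ± 0.09. The feedback target Axin2 held 21.7, 26.9, 18.5 and 29.2 CPM in GDX and 17.8, 22.9 and 20.0 CPM in E2, overlapping between groups (−0.25 ± 0.16, adjusted p = 0.50). None of these 4 had an unadjusted p under 0.05, and neither DESeq2 nor limma-voom called any.

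Of the TCF/LEF genes, the nuclear partners of beta-catenin, all 4 had log2 fold changes below 0 over all libraries and none was called by edgeR, DESeq2 or limma-voom. With the marker covariate Tcf7 was at 0.21 and Lef1 at 0.03. Tcf7l1, mostly a repressor, had the highest level per length and held 3.71, 4.93, 4.42 and 6.79 CPM in GDX and 4.01, 3.73 and 4.79 CPM in E2. Lef1, a feedback target, held 7.80, 4.73, 4.45 and 9.58 CPM in GDX and 2.44, 5.67 and 3.17 CPM in E2, with an unadjusted p under 0.05 (−0.82 ± 0.36, edgeR adjusted p = 0.274). It was highest in GDX replicates 1 and 4, and without those libraries the log2 fold change was −0.29 ± 0.35. Lef1 shares 1208 bp of exon with the antisense gene Gm43352 (mean 5.01 counts, beside 183 for Lef1). Of the known feedback targets, Nkd1 had the log2 fold change of −1.59 given above, and Axin2, Lef1, Notum, Rnf43 and Znrf3 had log2 fold changes of −0.85 to −0.14 that did not pass. That of Rnf43 turned to 0.36 without GDX replicates 1 and 4 and to 0.74 with the covariate.

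Other genes of the pathway were taken from a list of 66, of which 62 were tested. By edgeR 1 was lower and 2 were higher, 4.84% beside 3.88% of all tested genes and 4.52% of the protein-coding ones. The median log2 fold change of the 62 was −0.092. Dact1, whose product binds Dishevelled, held 13.9, 10.6, 12.7 and 17.2 CPM in GDX and 7.27, 5.97 and 8.19 CPM in E2 (−0.93 ± 0.19, adjusted p = 0.0192). Cxxc5, a zinc finger gene linked to Dishevelled, held 55.2, 56.4, 61.0 and 64.7 CPM in GDX and 76.8, 80.4 and 76.5 CPM in E2 (0.39 ± 0.08, adjusted p = 0.0199). Myc, a target of many pathways, held 3.35, 4.33, 2.56 and 2.63 CPM in GDX and 6.04, 6.23 and 6.80 CPM in E2 (0.99 ± 0.24, adjusted p = 0.0477). In all 3 the groups were apart, yet without GDX replicate 1 or E2 replicate 1 or 2 none of the 3 was called. Cxxc5 was also lost without GDX replicate 2 or E2 replicate 3, and Myc without GDX replicate 3 or 4 or E2 replicate 3. Myc lost its call in 13 of 17 alternatives, the scalings and the fit without the robust option among them.

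The other lists held no edgeR call. Of the 2 secretion genes, Porcn had a log2 fold change of 0.17 and Wls, which carries Wnt to the cell surface, of −1.15 ± 0.40 (edgeR adjusted p = 0.197, DESeq2 adjusted p = 0.00575). Among 7 co-receptors and related genes Ryk and Ptk7 differed by −0.28 and −0.18. Lrp4 differed by −0.68 ± 0.19 (edgeR adjusted p = 0.069, DESeq2 adjusted p = 0.0114). For 4 of these 7 the E2 libraries were all below GDX and for 0 above, where 8.06% and 8.43% of all tested genes were. Of 12 destruction complex partners Apc2 and Csnk1a1 differed by 0.06 and 0.15, and of 12 nuclear partners Aes and Chd8 by 0.14 and 0.04. Of 11 planar cell polarity genes, Celsr2 and Prickle2 differed by −0.13 and −0.05. Over these 5 lists unadjusted p under 0.05 were found for 1, 2, 1, 3 and 1 genes, all lower in E2, where 8.89% of all tested genes were lower at that level. DESeq2 called 1, 1, 0, 1 and 0 of them, and limma-voom 0, 1, 0, 1 and 0. Of the inhibitors outside the family names, Dact3 and Cxxc4 did not pass (0.02 and −0.16), nor did the targets Ccnd1 and Tnfrsf19 (−0.31 and −0.50).

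Per kilobase, the Frizzled sum was 25.5 ± 7.61 in GDX (SD, n = 4) and 19.5 ± 1.09 in E2 (SD, n = 3), and E2 replicate 2 lay above the lowest GDX library. The inhibitor sum, over genes grouped by symbol and not by shown activity, was 31.3, 30.4, 31.8 and 39.3 in GDX. It was 20.9, 27.6 and 26.9 in E2, with no overlap. Dkk3 made up 49.4% to 57.5% of it in GDX and 41.6% to 50.3% in E2, and without Dkk3 the sums overlapped, at 13.3 to 16.9 and 11.1 to 16.1. The LRP sum was 3.16 to 4.89 in GDX and 2.40 to 3.12 in E2, just apart. The ligand sum was 17.6 ± 3.67 in GDX and 16.3 ± 0.85 in E2, and it overlapped, as did those of R-spondins, LGR receptors, ligases, Dishevelled and Naked, the destruction complex with beta-catenin, and TCF/LEF factors. Of the 58 tested genes, 30 (51.7%) were highest of all 7 libraries in GDX replicate 4, as were 21.7% of all tested genes. Without that library 40 of the 58 genes had log2 fold changes below 0, where 43 did with it, and the median was −0.129. Without GDX replicates 1 and 4 it was 35 genes and −0.099, and with the marker covariate 31 genes and −0.042.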

How the data were processed

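Ribosome-bound RNA was sequenced in 4 GDX and 3 E2 libraries, from polyadenylated RNA without strand information per the labels. The deposited table holds expected counts, estimated counts per gene, and among values above zero 33.1% were fractional (no tolerance). The submitters' processing notes name RSEM 1.3.0, STAR 2.6.0a, Trimmomatic 0.38 and build mm10, without roles or order, and the annotation is not given in the sources used here. Of 55384 identifiers, 55203 were found in GENCODE vM21 (GRCm38).

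Counts were rounded and fitted in R 4.3.3 with edgeR 4.0.16 (TMM, filterByExpr with a minimum count of 10 and total of 15, robust quasi-likelihood, prior count 0.125). Adjusted p under 0.05 was called. Standard errors follow from the F statistic. Levels per length use the union of annotated exons. Alternatives used DESeq2 1.42.0, limma 3.58.1 (voom), other scalings and filters, a replicate block, the marker covariate and left-out libraries. The tests were checked on a single simulated data set. There the share of false calls was 6.57% for edgeR, 6.72% for limma-voom and, highest, 23.1% for DESeq2. Libraries were drawn independently, so shifts of many genes in single libraries were not covered. The edgeR test recovered 53% of the 2-fold and 75% of the 4-fold changes, so a gene that did not pass may still have changed. Floors cover counting error only, and p-values measure spread between pools. The members, lists and tests were chosen with earlier results of these data known. Values in every library were given for Wnt genes that were called, did not overlap or led their role, and for called pathway genes. The 2 most abundant uncalled genes of each pathway list were named, with a few others chosen after their values were seen.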

Additional observations from a re-analysis of the deposited data

Results flagged for a closer look

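GDX holds 4 libraries, so its highest or lowest library was compared with the rest for 58 genes and 10 role sums. A gap above Dixon's 95% critical value for 4 samples marked 8 of these 68 values, and chance marks about 1 in 20 groups. All 8 were GDX replicate 4, the library with the highest mural and meningeal marker sum. It was highest for Wnt6 (8.69 CPM, others 0.302 to 0.632), Wnt4 (29.1 CPM, others 10.3 to 12.1), Fzd2 (13.4 CPM, others 4.75 to 5.8), Fzd1 (14.6 CPM, others 6.47 to 7.58), Rspo3 (3.91 CPM, others 1.07 to 1.47), Nkd2 (6.65 CPM, others 4.96 to 5.17) and the summed secreted inhibitors (39.3 CPM per kb, others 30.4 to 31.8). It was lowest for Dvl1 (89.1 CPM, others 129 to 132).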

How the results depend on the processing

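Called genes of the whole table numbered 710, and 1609 without a filter, 1400 with DESeq2, 1082 with limma-voom, 311 with the marker covariate and 364 to 974 with 1 library left out. Wnt genes called numbered 5, and 12, 9, 6, 1 and 2 to 7 in the same settings. Other pathway genes called numbered 3, and 7, 6, 6, 0 and 0 to 4. The cause of these differences was not tested, except that left-out libraries and the covariate leave fewer degrees of freedom. Rises were 65.8% of all calls, and 44.9% without a filter and 48.2% with DESeq2. With the replicate number as a block, 612 genes, 4 Wnt genes and 3 other pathway genes were called. Only GDX has a replicate 4, so in that fit this library gives no direct information on the E2 effect. Same-numbered GDX and E2 libraries deviated together with correlations of −0.055 to −0.02, so the numbers do not pair the libraries. Of the 58 tested Wnt genes, 15 changed sign in at least 1 of 4 settings: 7 without GDX replicate 4, 10 without GDX replicates 1 and 4, 14 with the covariate and 0 with DESeq2. Wnt6 went from −1.83 to 0.70 and Sfrp1 from −0.51 to 0.13 without GDX replicate 4, and to 1.03 and 0.85 with the covariate. Dvl1 was −0.02 with the replicate block, −0.03 with the covariate, −0.02 without GDX replicates 1 and 4, and −0.02 to 0.15 with 1 library left out. Fzd3 was 0.08 with the covariate and 0.02 without GDX replicates 1 and 4. Lgr4 was 0.05 with the block, 0.25 with the covariate, 0.11 without both libraries and −0.22 to 0.10 with 1 left out. Ctnnb1 was −0.02 with library sizes alone. Without any 1 library, with library sizes alone and without division by length, no role sum ratio moved by more than the spread between libraries. That spread includes GDX replicate 4, so the comparison cannot judge how far that library sets the sums. The ligand sum was 22.9 CPM per kb in GDX replicate 4, 14.7 to 16.5 in the other GDX libraries and 15.5 to 17.2 in E2. For the Frizzled sum these were 36.7, 20.4 to 23.9 and 18.4 to 20.6. Depth limits Wnt16, Wif1, Fzd10 and the 6 untested genes.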
